A study of Homo sapiens with 6 samples.

Results

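MALAT1 is a long noncoding RNA of the nuclear speckles, and its 2′-O-methylation readout was described base by base in chromatin-associated RNA of HepG2 cells, an established human hepatocellular carcinoma line. The members were the plus-strand rows of the deposited tables that lie in the gene, chr11:65497640-65508073 of hg38, a span of 10434 nt. They came to 4968 positions out of the 387463 that either table lists, and every one was a G, A or C in the reference. Of these, 4892 were listed under imbalanced dNTP, 4203 under balanced dNTP and 4127 under both. All 4968 reference bases equalled the base of hg38 at the same coordinate.

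MALAT1 is transcribed by RNA polymerase II, stays in the nucleus and gathers in nuclear speckles, bodies rich in splicing factors. It has no poly(A) tail. RNase P cuts its primary transcript just upstream of a tRNA-like element, which leaves the nucleus as the small mascRNA, and the new 3′ end of MALAT1 folds its A-rich tract into a triple helix with a pair of U-rich tracts. A 2′-O-methyl group (Nm) sits on the ribose of any base. In messenger-like RNA it is best known from the first nucleotides next to the cap, and in ribosomal and small nuclear RNA it is placed by fibrillarin with guide RNAs.

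Nm-mut-seq reads such a ribose as a mutation. The reverse transcriptase tends to place dA opposite a methylated G, A or C when the other nucleotides are scarce, so the base is read as T. Each of the 3 biological replicates of HepG2 chromatin-associated RNA was ligated to an adapter and then divided between both reverse transcriptions, which gave 6 libraries. In the imbalanced libraries dATP was at 1 mM and each other dNTP at 2 µM, and in the balanced libraries, which serve as input, the other dNTPs were at 1000 µM. Ribosomal RNA and short RNA had been removed from all of them, and none carried a genetic change or drug. The measure given throughout is the mutation ratio, the reads with T as a percentage of all reads at a position. It is counted over reads from methylated and unmethylated copies of a base together. As background the study used a spike-in that carries no Nm but went through the imbalanced reaction. That background was not used here, so the part of a ratio that comes from unmethylated bases is not known. A ratio is therefore not a level of methylation.

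The text turns on a small set of positions, numbered here from the most frequent annotated transcript start, chr11:65499045, which 19 of the 66 GENCODE transcripts share. They are shown with 10 bases on each side, 5′ to 3′ on the plus strand of hg38, with T for U and the measured base in capitals. The first 10 had the highest mean ratio among positions read at least 100 times in each imbalanced library that met the site criteria given further on.
nt 4745 (chr11:65503779-65503799): aagaacgaatGtaactttaag
nt 2902 (chr11:65501936-65501956): ataaactcatGccagagaact
nt 5993 (chr11:65505027-65505047): agctttttctGtatttacata
nt 1902 (chr11:65500936-65500956): catgaatcttGtctgaagctt
nt 2459 (chr11:65501493-65501513): ccttaaacttGttatttttta
nt 3706 (chr11:65502740-65502760): aagattatatGtcatacctcc
nt 2270 (chr11:65501304-65501324): gactcaaggtGtaacagaaaa
nt 6510 (chr11:65505544-65505564): caacttctctGccacatcgcc
nt 783 (chr11:65499817-65499837): agggcaaaatGtacaaactta
nt 5891 (chr11:65504925-65504945): gggattgggaAccactagttc
The remaining lines show the C with the highest ratio, the first base of the transcript, a C read as T in both conditions, and 1 of the 3 UGU positions with the lowest ratio.
nt 5358 (chr11:65504392-65504412): ctgttctgatCccgctgctat
nt 1 (chr11:65499035-65499055): gctgtgcggtAggcattgagg
nt 5317 (chr11:65504351-65504371): gacttcaggtCtgtctgttct
nt 4315 (chr11:65503349-65503369): tgtaggacttGttcctgtggg
Each of these positions is exonic in 7 to 30 of the GENCODE transcripts and intronic in 1 to 26 others, and MALAT1 has no coding sequence. Of the first 10, 9 were G and 7 were G with U on both sides (UGU).

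MALAT1 was among the deepest RNAs of the series. It held 15.2% to 17.9% of all depth in the imbalanced table and 14.3% to 17.2% in the balanced table. The median depth of its listed positions was 597, 519.5 and 786 reads in imbalanced replicates 1, 2 and 3, and 1168, 785 and 1115 in the balanced ones. Over the whole imbalanced table the medians were 15 to 23 reads. Depth in bulk RNA does not separate fewer transcripts per cell from fewer cells that carry them. No position of the opposite strand, where the antisense RNA TALAM1 is annotated, was listed inside the gene in either table. Of the HepG2 markers, 9 of 10 had listed positions (ALB, AFP, APOA1, APOA2, APOB, A2M, TF, SERPINA1 and FN1, but not FGB), and the blood and stromal markers PTPRC, CD68, COL1A1 and PECAM1 had none.

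The G, A and C bases of MALAT1 were read as T far more often under imbalanced than under balanced dNTP. Over the 4127 positions listed in both tables, the share of reads with T was 3.20%, 3.36% and 3.12% in the imbalanced replicates and 0.105%, 0.121% and 0.113% in the balanced ones. The difference was 3.11 percentage points ± 0.115 (SD, n = 3 pairs), and every imbalanced library lay above every balanced library. The exact paired permutation test gave p = 0.25, the smallest value that 3 pairs allow in a two-sided test. Reads with a base other than T or the reference made up 0.283% ± 0.0110 and 0.258% ± 0.00935 of reads, so the excess lay in T.

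Position by position, 3933 of the 4127 positions had a higher ratio under imbalanced dNTP (edgeR quasi-likelihood test on reads with and without T, adjusted p below 0.05), which is 95.3%, against 73.9% of all 32284 positions tested in the series. None was lower, also at an unadjusted p below 0.05 and by DESeq2, against 0.0558% of all positions. The median log2 change was 4.57 in MALAT1 and 3.94 over all positions. The called positions were 1285 of 1403 G, 1743 of 1798 A and 905 of 926 C. Of the 194 that were not called, 193 had a positive estimate, and the lowest of these, a G at chr11:65502785, had 0.272% T under imbalanced and 0.230% under balanced dNTP (adjusted p = 0.892). MALAT1 was deeper than most of the table, and much of the gap to the series went away at depth. Among positions with at least 50 reads in every library, 3956 of 4123 in MALAT1 were higher, or 95.9%, against 91.5% of all 24432, with median log2 changes of 4.57 and 4.38.

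The study's site criteria were then applied, without its spike-in background, which was not used here. A site had at least 10 reads, at least 3 reads with T and a ratio over 3 times that of its input in all 3 replicates. MALAT1 had 4118 such sites, 84.2% of its positions in the imbalanced table, against 16.8% over the whole table. The whole table held 29651 positions that passed this rule. The study's own list also had to pass the background, and it is far shorter. Sites here are thus positions that met the looser rule, and not the Nm sites called by the study. Among positions read at least 100 times in each imbalanced library the shares were 84.4% of 4877 in MALAT1 and 75.8% of 30226 in the series. Of the 774 positions that failed, 663 had fewer than 3 reads with T in a library, among them 7 that were also too shallow. The other 111 failed only against the input. The sites had a median ratio of 2.78%. Only 112 of them reached 10%, and these were spread from nt 1 to chr11:65506006, just upstream of the triple helix, with a median spacing of 46 nt and a widest gap of 387 nt.

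Among the 3 bases, G had the highest share of reads with T when reads were summed, and A the lowest. For G it was 3.57%, 3.74% and 3.44% in the imbalanced replicates, over 1613 positions with at least 10 reads. For C it was 3.17%, 3.30% and 3.12% over 1046 positions, and for A 2.80%, 2.96% and 2.74% over 2226. G exceeded A by 0.753 points ± 0.0376 and C by 0.387 ± 0.0545, in 3 of 3 libraries each (exact paired permutation p = 0.25 each).

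The order did not hold for the typical position. The median ratio was 2.25% for G, 2.33% for A and 2.65% for C, so that per library the median of G lay below that of A by a mean difference of -0.0841 points and below that of C by -0.379. G was also the most spread out, with quartiles of 1.07% and 4.85% against 1.5% and 3.61% for A. Of the 4118 sites, 30.5% were G (Wilson 95% interval 29.1% to 31.9%), 47.0% A and 22.5% C. The interval takes positions as independent, which neighbours on shared reads are not. All of the sites lay between the transcript start and the end of the A-rich tract. The sequence there had 33.6% G, 45.2% A and 21.2% C among these bases. Of the 827 positions with a mean ratio of at least 5%, G made up 47.6%, and of the 115 with at least 10%, 92 were G, 11 A and 12 C. G thus supplied many of the lowest as well as most of the highest ratios.

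The neighbours of a base went with much of this spread. All 48 trinucleotides with G, A or C in the middle were compared over the MALAT1 positions read at least 10 times in each imbalanced library, on the RNA strand and with overlaps kept. That U on both sides goes with a high ratio was known from these data beforehand. The 137 UGU positions of the transcript were all listed, and their share of reads with T was 9.81%, 10.2% and 9.34% in the imbalanced replicates, the highest of the 48. G in other contexts had 2.85%, 3.00% and 2.76%. The libraries of both sets did not overlap, and the difference was 6.91 points ± 0.295 (3 of 3 libraries, exact paired permutation p = 0.25). Under balanced dNTP UGU was at 0.0913%, close to the 0.0994% of other G.

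Next after UGU came UGC at 7.94%, UCC at 6.98%, CGC at 6.67%, CGU at 6.64% and UAU at 6.25%. The lowest were GGA at 0.858% and GGG at 0.619%, which with AGG, GAG and AGA have a purine on both sides. UAU exceeded other A by 3.60 points ± 0.0318. UCU exceeded other C by 1.36 ± 0.0536, or by 0.905 without the C at nt 5317, which holds T in both conditions. UGU and UAU were 8.49% of the G and 4.49% of the A positions. Without the positions that have U on both sides, G exceeded A by 0.218 points and lay below C by -0.154.

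**Figure D1:**
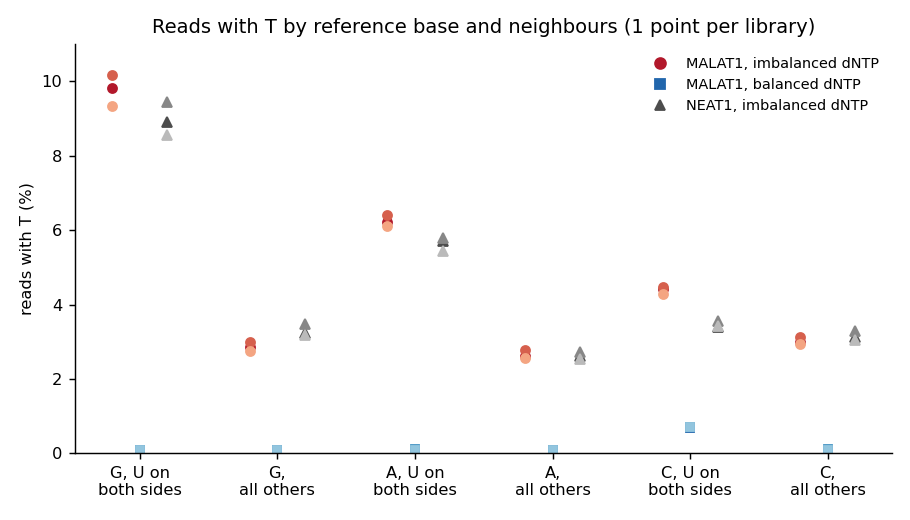
Share of reads with T in percent (vertical axis) for G, A and C with U on both sides and for all other positions of the same base, with 1 point per library: circles for MALAT1 under imbalanced dNTP, squares under balanced dNTP and triangles for NEAT1 under imbalanced dNTP. UGU of MALAT1 sits between 9.34% and 10.2%, and the balanced points lie near 0 except for C with U on both sides, at 0.692%, where 1 position carries the reads.

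Not every UGU was high. The middle 50% of the 137 UGU positions ran from 7.28% to 12.3%, 68 reached 10%, and none was below 2%. The lowest read at least 100 times were the G at nt 4315 with 3.00%, 2.26% and 2.96%, the G at nt 2363 with a mean of 3.55% and the G at nt 3042 with 3.81%. Their balanced ratios were all below 0.3%. All 3 were still higher under imbalanced dNTP, with log2 changes of 6.44, 5.30 and 4.27 (edgeR adjusted p = 8.65e-35, 1.18e-27 and 2.79e-16).

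The highest ratios at good depth were those of the G at nt 4745, with 17.9%, 21.3% and 17.3% in the imbalanced replicates and 0.0965%, 0.136% and 0.0965% in the balanced ones. Its log2 change was 7.53 (edgeR adjusted p = 9.65e-88). The G at nt 2902, in UGC, had 18.9%, 19.9% and 15.9% against 0.0742%, 0.306% and 0.459%. The G at nt 5993, in UGU, had 17.5%, 18.7% and 17.8% against at most 0.283%. At each of these 3 positions the imbalanced libraries stood far above the balanced ones.

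The G at nt 3706 gave nearly the same ratio in all imbalanced libraries, 16.9%, 16.8% and 16.7%, and was at 0%, 0% and 0.151% in the balanced ones. With 668, 571 and 867 reads behind these values, this was the smallest SD among the 10 highest. By contrast the G at nt 6510 ran from 14.0% to 19.7% at depths of 366 to 658. The SDs of the 10 highest lay between 0.0960 and 3.07 points, and their means between 15.7% and 18.8%, so the order within the 10 is mostly inside the spread of the replicates. The G at nt 1902 and nt 783 were not listed under balanced dNTP and could not be tested.

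The highest A at good depth was at nt 5891 in AAC, with 14.8%, 17.2% and 15.3% against 0.217%, 0.235% and 0.320% (log2 change 6.09, edgeR adjusted p = 9.14e-118). It stood out from its context, since AAC positions had a share of 3.39%. The highest C was at nt 5358 in UCC, with 11%, 15.3% and 13% (log2 change 6.25, adjusted p = 1.12e-75).

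The highest ratio of the whole transcript was at its first base. The A at nt 1 was read as T in 38 of 53, 17 of 22 and 32 of 48 reads in the imbalanced replicates, which is 71.7%, 77.3% and 66.7%. In the balanced replicates it was T in 8 of 151, 11 of 90 and 14 of 144 reads, or 5.30%, 12.2% and 9.72%. The Wilson 95% intervals ran from 52.5% to 89.9% over the imbalanced libraries and from 2.71% to 20.6% over the balanced ones and did not overlap. They cover counting error only. The log2 change was 4.75 (edgeR adjusted p = 8.64e-17), and the position met the site criteria. Its depth is below the 100 reads asked of the other named positions, and it was chosen after its values were seen.

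This base marks where the coverage of MALAT1 began. The balanced table listed a G 2 nt upstream at 13, 9 and 10 reads, against 151, 90 and 144 at nt 1, and the imbalanced table listed no position in the 10 nt upstream. The bases next to it had far lower ratios. The G at nt 2 had 7.41%, 0% and 2.08% and the G at nt 3 had 7.27%, 8.70% and 0%, and neither passed the test (edgeR adjusted p = 0.0664 and 0.0924, or 0.0164 and 0.0337 with no replicate block). The A at nt 5 had 3.90%, 6.38% and 5.66%, passed (adjusted p = 0.0156, but 0.123 to 0.212 without 1 replicate) and met the site criteria. Nearly all of the other reads at nt 1 held A, with 2, 0 and 2 imbalanced reads holding C or G. In the series, 8 of the 28520 positions with at least 20 reads in all 6 libraries had at least 50% T in each imbalanced and under 20% in each balanced library, and this A was the 1 among them in MALAT1. It also had the second highest balanced ratio of the named positions, 9.08% ± 3.51, after the C at nt 5317.

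The C at nt 5317, chr11:65504361, had by far the highest balanced ratio of the named positions. It was T in 45.7%, 44.3% and 45.3% of imbalanced reads and in 46.6%, 48.9% and 48.6% of balanced reads, at depths of at least 813 in the imbalanced libraries. The log2 change was -0.17 (edgeR adjusted p = 0.125), the lowest estimate of MALAT1, and it failed the site criteria. This position carried a good part of the balanced T reads of the RNA. Without it the balanced share over the positions listed in both tables went from 0.113% to 0.0951%, and that of C from 0.177% to 0.10%, while the imbalanced share went from 3.22% to 3.21%. The next highest balanced ratios at 100 reads or more were far lower. They were 1.14% for the C at nt 5264 and 1.13% for the C at nt 3575, which both stand just before a run of U. The first was not called (adjusted p = 0.276). The second was, with a log2 change of 1.31 (edgeR adjusted p = 0.0011, but 0.0975 by DESeq2 and 0.119 without replicate 3).

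**Figure D2:**
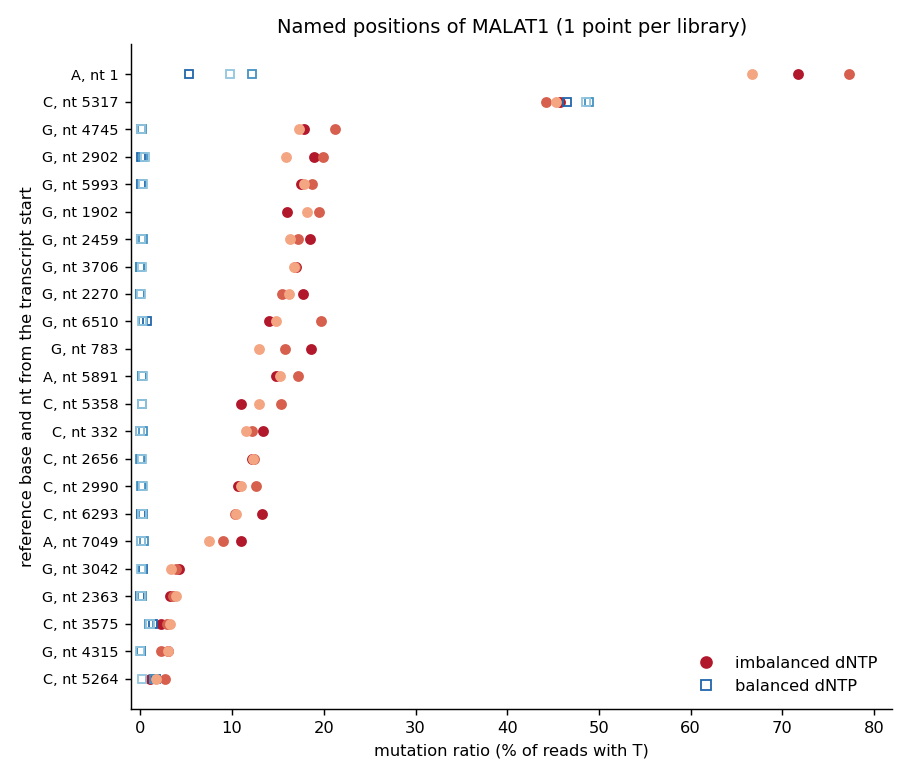
Mutation ratio in percent (horizontal axis) of named positions, by reference base and nt from the transcript start, with filled circles for the 3 imbalanced and open squares for the 3 balanced libraries. The A at nt 1 lies at 66.7% to 77.3% against at most 12.2%, and the C at nt 5317 is high in both conditions, at 44.3% to 48.9%. The conditions also overlap at the C at nt 5264, at 2.73% or less.

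Along the transcript the share of reads with T was nearly level. In steps of 500 nt from the start of the annotated gene, 14 windows from nt 1501 to nt 8500 of the gene held at least 200 listed positions each. Their imbalanced shares ran from 2.73% ± 0.152 at gene nt 2001 to 3.53% ± 0.0977 at gene nt 6501. The last of these holds the C at nt 5317 and was at 3.36% without it. The window at gene nt 2001 was also the shallowest, with a median of 207 to 273 imbalanced reads, and the deepest, at gene nt 8001, had 834.5 to 1207. The lowest windows came first, with 2.73% to 2.98% up to gene nt 3000, and all later ones were at 3.05% or more. In every one of the 14 windows each imbalanced library exceeded each balanced library more than 10 fold in T share, the balanced shares being at most 0.324%.

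**Figure D3:**
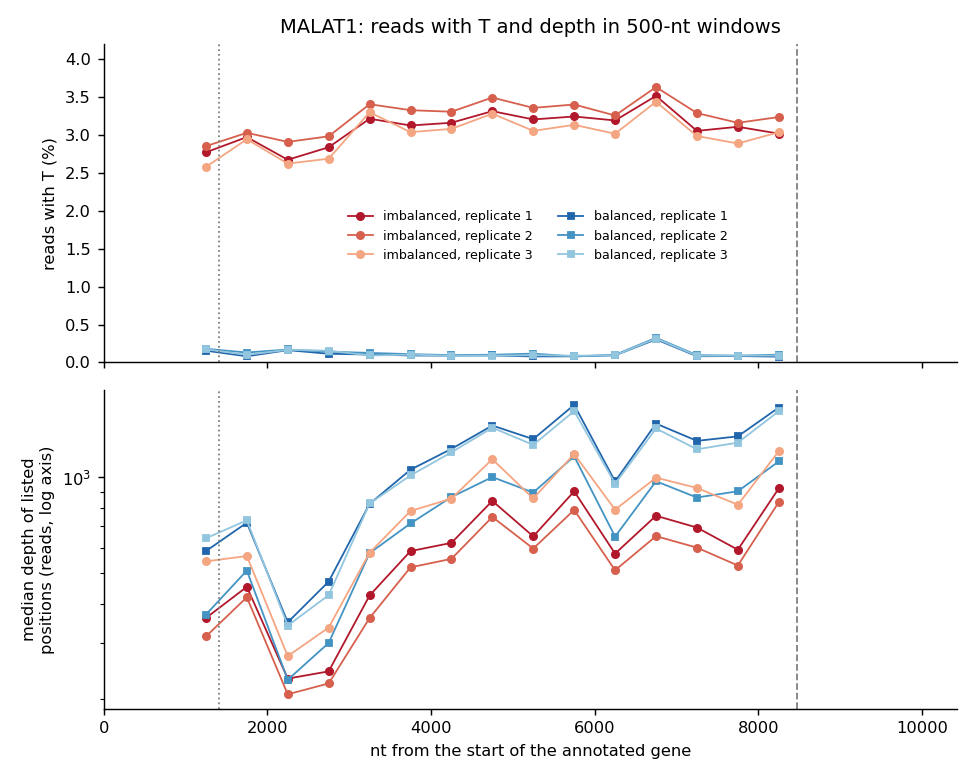
Share of reads with T in percent (upper panel) and median depth of the listed positions on a log axis (lower panel) in 500-nt windows with at least 50 listed positions, against nt from the start of the annotated gene, for each of the 6 libraries. The dotted line is the most frequent transcript start and the dashed line the first base of mascRNA. The imbalanced libraries stay between 2.58% and 3.63% while depth changes several fold, and the balanced rise at gene nt 6501 is due to the C at nt 5317.

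Coverage stopped at both ends of the mature RNA. Every listed position of the series had at least 5 reads in each library of its table and, over its 3 libraries, at least 1 read with T (3 reads in the imbalanced table), so bases without any T are not among the rows. Before the most frequent start, 4 positions of the imbalanced table were listed out of 1057 G, A and C, and after mascRNA 5 out of 1341. Between the start and the end of the A-rich tract, 4883 of 4973 were listed. Depth had little to do with the ratio among the gene's positions read at least 10 times in each imbalanced library. The Spearman correlation of a position's lowest imbalanced depth with its mean ratio was 0.0342 over 4885 positions, which share the same libraries and reads, so it is given as a description. In the shallowest 25% of positions, with 10 to 347 reads in the shallowest imbalanced library, the T share was 2.91% ± 0.123 and 63.2% were sites. In the deepest, with 726 to 1397 reads, the T share was 3.24% ± 0.121 and 93.8% were sites. The count of sites thus moved with depth more than the ratio did.

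The 3′ end was examined for its triple helix and for mascRNA. The sequence is shown because the ratio changed within it: the first line is the span of 89 nt from the first U-rich tract to the end of the A-rich tract, with the 3 tracts in capitals, and the second is mascRNA as annotated by RefSeq.
triple helix span (chr11:65506028-65506116): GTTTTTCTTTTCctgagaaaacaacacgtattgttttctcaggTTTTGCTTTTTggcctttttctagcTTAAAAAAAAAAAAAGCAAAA
mascRNA (chr11:65506117-65506174): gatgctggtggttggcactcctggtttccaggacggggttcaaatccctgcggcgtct
The tracts were found by windows of 10 bases with at least 8 T or A. GENCODE annotates a small RNA over mascRNA.

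The triple helix span as a whole had 3.47%, 3.77% and 3.57% T in the imbalanced replicates, above the rest of MALAT1 by 0.439 points ± 0.0949 (3 of 3 libraries, exact paired permutation p = 0.25). Its parts went opposite ways. Upstream of the A-rich tract, the 35 listed positions were all sites, and their share exceeded the rest by 0.718 ± 0.0924. The 18 listed positions of the A-rich tract had 1.90%, 2.30% and 1.93%, below the rest by a difference of -1.13 points ± 0.124. Of these, 9 were sites, against 84.2% of the listed positions of MALAT1. The count of sites moved with depth, and depth was not matched here. Median imbalanced depths were 915, 822 and 1212 reads upstream of the tract and 327, 273.5 and 446 in it. Compared with A alone, the 16 A of the tract lay -0.790 points ± 0.0444 from the other A of MALAT1 (exact paired permutation p = 0.25 in each case). The tract is mostly AAA, and AAA positions throughout MALAT1 had 2.06% ± 0.139. The tract's 2.04% ± 0.145 for A is not a value for AAA, since it includes the A at nt 7054 in UAA, with a mean of 6.42%. The AAA positions of the tract had means of 0.435% to 3.13%. They were above 2.06% at nt 7055, 7063, 7064 and 7070 and below it at the others, and their summed share was not computed. When the window was the last 300 nt up to the end of mascRNA, the difference from the rest was -0.0739 points ± 0.0346.

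Within the span the highest ratio was that of the A at nt 7049, just before the A-rich tract, with 10.9%, 9.01% and 7.51% in the imbalanced and 0.0709%, 0.348% and 0.0735% in the balanced replicates (log2 change 6.07, edgeR adjusted p = 4.25e-52). Its sequence is gcctttttctAgcttaaaaaa (chr11:65506083-65506103). The first A of the tract itself, at nt 7054 after a U, had 6.83%, 6.67% and 5.77%. The next base, at nt 7055, had a mean of 2.09%, the lowest was 0.435% at nt 7060, and 2.73% at nt 7064 and 3.13% at nt 7070 followed. The U-rich tracts hold few measurable bases. The first had 2 C with a share of 7.88% ± 0.535 and a G at 0.867%, and the second a G at 8.11% ± 1.29 and a C at 2.02%.

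Depth fell along the A-rich tract, from 527, 465 and 711 imbalanced reads at nt 7054 to 148, 121 and 219 at nt 7071. No base of mascRNA was listed in the imbalanced table, and 5 were in the balanced table, 3 of them at 14 to 16 reads in replicate 1. Short RNA had been removed before the libraries were made. The imbalanced libraries hold no value for mascRNA, and nothing follows from its missing rows about its methylation.

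**Figure D4:**
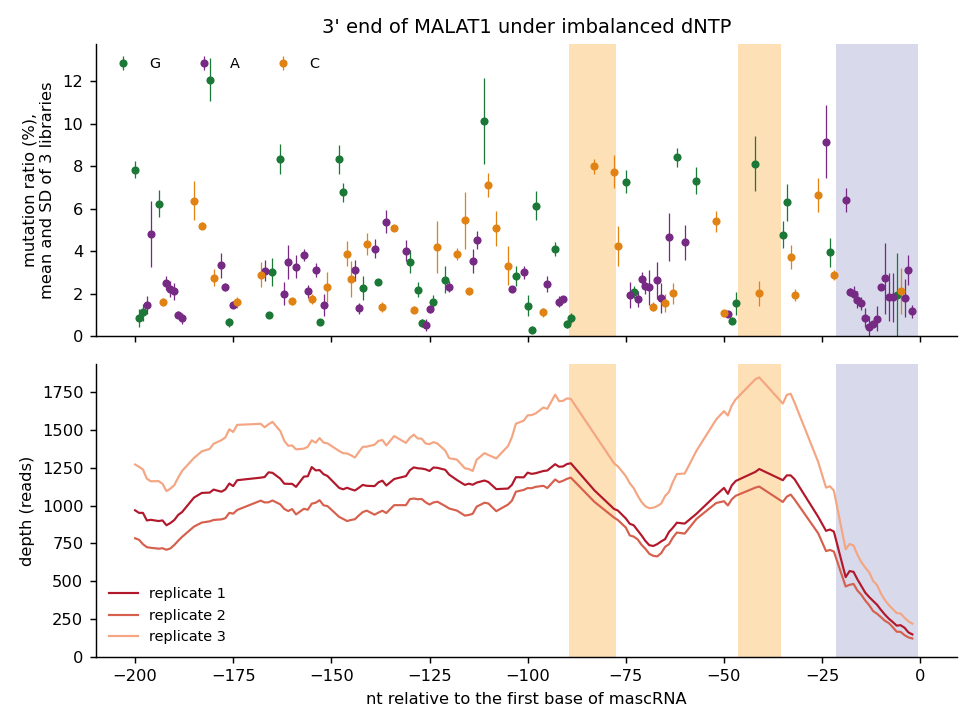
Upper panel, mutation ratio in percent under imbalanced dNTP (mean and SD of 3 libraries) of each listed base in the last 200 nt before mascRNA, coloured by reference base; lower panel, depth in reads per imbalanced library. The horizontal axis gives nt relative to the first base of mascRNA, the orange bands the U-rich tracts and the lilac band the A-rich tract, where the ratios fall below most of the span and depth falls from 527 to 148 reads in replicate 1.

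NEAT1, the scaffold of paraspeckles and the neighbour of MALAT1 on the same strand, had 14529 listed positions and was the closest RNA for comparison. Its share of reads with T under imbalanced dNTP was 3.40%, 3.58% and 3.32%, against 3.15%, 3.30% and 3.07% in MALAT1. MALAT1 was lower by a mean difference of -0.262 points ± 0.0173 in 3 of 3 libraries. By base, the difference was -0.600 for G, -0.0750 for A and 0.00065 for C, and the last had no common sign over the libraries. The exact paired permutation test gave p = 0.25 for the first 3 of these and p = 1 for C.

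The lower share of MALAT1 turned into a higher one once neighbours were matched. With the 48 trinucleotides weighted equally, MALAT1 exceeded NEAT1 by 0.207 points ± 0.0168 in 3 of 3 libraries (exact paired permutation p = 0.25). MALAT1 was above NEAT1 in all 3 libraries in 33 contexts and below in 8. In UGU the shares were 9.77% ± 0.412 in MALAT1 and 8.96% ± 0.446 in NEAT1, in UAU 6.25% and 5.64%, and in GGG 0.619% and 0.737%. UGU made up 8.49% of the G positions of MALAT1 and 14.6% of those of NEAT1. Over the 48 contexts the shares of both RNAs followed each other, with a Pearson correlation of 0.987 and a Spearman correlation of 0.982, given as a description since both come from the same libraries.

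**Figure D5:**
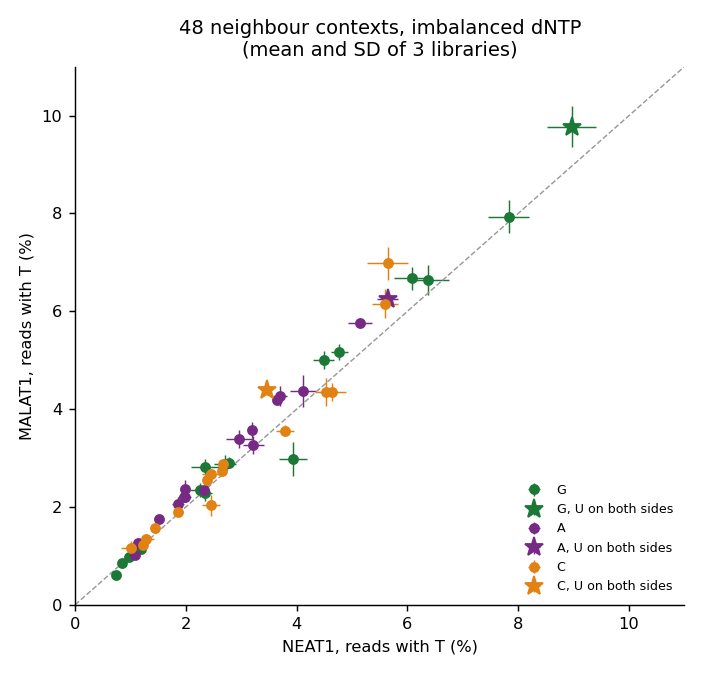
Share of reads with T under imbalanced dNTP in percent for each of 48 trinucleotide contexts in MALAT1 (vertical axis) and NEAT1 (horizontal axis), as mean and SD of 3 libraries, coloured by the middle base with stars for U on both sides. The dashed line marks equal shares, and UGU lies highest in both RNAs, at 9.77% and 8.96%.

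Among 75 other genes with enough positions of each base, genes among those most like MALAT1 by the mean absolute difference of the T share per base and library (18 values) were SNHG29, RPL13A, MT-RNR2 and MT-RNR1. The differences were 0.0878, 0.123, 0.148 and 0.148 points, and NEAT1 came after them at 0.151. They are a small nucleolar RNA host gene, a ribosomal protein gene of the large subunit, and the ribosomal RNAs of mitochondria. The spans of SNHG29 and RPL13A include small RNAs lying in introns, and SNHG29 had 92 positions against 4127 of MALAT1. Ranked by the share itself, MALAT1 was number 52 of the 76 genes at 3.22%, and NEAT1 number 30 at 3.55%. Depth was not matched in this ranking, and listing itself asks for reads with T. The first 5, from FNDC3B at 10.7% to KCNQ1OT1 at 8.90%, also had balanced shares of 0.944% to 2.44%, against 0.113% in MALAT1.

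Other noncoding RNAs lay in the same range where they were deep. They were counted over whole gene spans, with any introns and the small RNAs in them included. GAS5 had 3.47% ± 0.0769, SNHG1 3.29% ± 0.0608, RPPH1, the RNA of RNase P, 3.09% ± 0.0962 and RMRP, the RNA of RNase MRP, 3.04% ± 0.0898. RN7SK, which holds back the elongation factor P-TEFb, had 2.69% over 31 positions. KCNQ1OT1 had 8.49% at a median depth of 18 to 27 reads, where listing itself asks for reads with T, and 82 of its 2476 listed positions were sites. TUG1 and NORAD had no position with 10 reads, and FTX and OIP5-AS1 had none listed.

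The replicates gave much the same ratios position by position. Over the 4877 positions with at least 100 reads in each imbalanced library, the Pearson correlation of ratios between replicates was 0.901 to 0.910 and Spearman's 0.832 to 0.848. Between balanced libraries Spearman's correlation ran from -0.105 to -0.0693 over 4183 positions, and the cause was not tested. The squared difference in ratio between imbalanced replicates was 1.11 to 1.21 times what counting error gives, and that in depth 1.22 to 2.30 times. The replicates were counted as separate samples because the study describes 3 biological replicates. Reads span 100 bases at most, so neighbouring positions share reads and are not independent measurements.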

How the data were processed

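The tables hold counts that the authors deposited after trimming with cutadapt, mapping with TopHat2 to hg38 and calling mismatches with JACUSA: per position and library the reads with each base and the depth, 1 table per condition. A deposited score column was not used. Versions are not given in the sources used here. A position unlisted in a table has no value there, and in the site criteria its input ratio was taken as 0.

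The reads of each position with T and without T entered a quasi-likelihood fit in edgeR 4.0.16 under R 4.3.3, with terms for the library, the replicate block and imbalanced dNTP, over all positions listed in both tables with at least 10 reads in every library, with Benjamini-Hochberg adjustment over all 32284 of them. DESeq2 1.42.0 was an alternative. The script was tested on simulated data. Shares were compared by exact two-sided paired permutation tests over all sign changes, in numpy 2.4.6 under Python 3.11.15. Replicate numbers pair the libraries because the methods divide 1 ligated RNA between both reactions. Over 4123 positions the depth deviations of same-numbered libraries correlated at 0.0710, 0.287 and 0.224. Libraries of different numbers correlated at -0.290 to 0.0666, so the pair of replicate 1 was hardly set apart by depth.

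The members, lists and comparisons were chosen with earlier results of these data known. Named positions are the 10 highest mean ratios among sites at 100 reads or more, the highest per base, per 1000 nt and in the triple helix, and the 3 highest under balanced dNTP; those at nt 1, 2, 3 and 5, the 5 highest A and C, the lowest UGU and the bases of the A-rich tract were added after their values were seen. The plan to find mascRNA by its fold was replaced by the RefSeq annotation. GENCODE release 44 gave gene spans. Total depth at listed positions was 17063930 to 34367262 reads per library. Of the 5 genes most like MALAT1 that the naming rule picks, 1 is not reported here.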

Additional observations from a re-analysis of the deposited data

How the results depend on the processing

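The count of positions with a higher ratio in MALAT1, 3933, was 4023 with no replicate block, 3927 and 3956 at minimum depths of 5 and 50, 3933 with TMM factors, 3888 by DESeq2, 3053 when Fisher's exact test had to pass in all 3 replicates, and 3513 to 3613 when 1 replicate was left out. The 4118 sites became 593 at a minimum ratio of 0.05 and 70 at 0.1, and the share of G among them went from 30.5% to 54.6% and 82.9%. Other thresholds kept between 3562 and 4323 sites. The sign changed under another choice, with the cause not tested, for these: G minus A with medians of positions (-0.0841 points), G minus C with medians (-0.379) and without U on both sides (-0.154), MALAT1 minus NEAT1 with 48 contexts weighted equally (0.207), and the 3′ end with the last 300 nt (-0.0739), the A-rich tract (-1.13) or its A alone (-0.790). The spread of the windows along the transcript, 0.794 points, was 0.628 without the C at nt 5317. Leaving out a replicate changed no sign of these differences. Among 40 named positions with a test, 18 of the alternative fits lost a call and 3 gained one, and none turned its direction. The alternatives that match contexts, split the triple helix, use medians by base or leave out nt 5317 were chosen after seeing the data. With 3 pairs no difference of shares can pass a threshold of 0.05.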

Other observations

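The bases beyond the direct neighbours of UGU also went with its ratio in MALAT1. With A in front of the UGU its share of reads with T was 11.4% ± 0.472 over 35 positions, with C 8.56% ± 0.231 over 30. With C after the UGU it was 11.5% ± 0.623 over 16 positions, with G 8.69% ± 0.351 over 34. These are descriptions of small sets that share sequence and libraries, with no test.

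A stretch of 95 nt inside MALAT1, chr11:65502914-65503008, is annotated by GENCODE as a separate small RNA. Its 74 listed positions had 2.88% ± 0.220 reads with T under imbalanced dNTP, against 3.17% ± 0.119 from the transcript start to the end of the A-rich tract, and 69 of them were sites.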
